A study of Mus musculus with 96 samples.

Results

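Nuclear receptors are transcription factors, many of which are switched on or off by small fat-soluble ligands such as steroids, thyroid hormone, retinoids, bile acids and fatty acids. The 39 mouse genes described here were taken by their gene symbol from a table of 54532 genes. The choice was made with earlier results of these data known. They are Ppara, Ppard, Pparg, Rara, Rarb, Rarg, Rxra, Rxrb, Rxrg, Thra, Thrb, Nr1d1, Nr1d2, Rora, Rorb, Nr1h2, Nr1h3, Nr1h4, Nr1i2, Nr1i3, Nr2c1, Nr2c2, Nr2e3, Nr2f1, Nr2f2, Nr2f6, Esr1, Esr2, Esrra, Esrrb, Esrrg, Nr3c1, Pgr, Nr4a1, Nr4a2, Nr4a3, Nr5a2, Nr6a1 and Nr0b2. All 39 were found, and all 39 reached a TPM of 1 in at least 3 mice, the filter applied before testing. TPM is each transcript's share of all transcripts of a sample after division by transcript length, so levels of different genes are compared on it.

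Transcripts were measured in microdissected kidney parts of healthy male C57BL/6 mice aged 6 to 8 weeks, fed normal chow with free access to water, with no treatment or engineered allele named in the labels. The 93 samples came from 53 mice in 15 groups, the glomerulus and 14 tubule segments. The proximal tubule was sampled as its initial convoluted part (PTS1), the straight part of the cortical medullary rays (PTS2) and the last straight part (PTS3). The loop of Henle was sampled as the short descending limb (DTL1), the long descending limb in the outer (DTL2) and inner medulla (DTL3), the thin ascending limb (ATL) and the thick ascending limb of medulla (MTAL) and cortex (CTAL). Then come the convoluted distal part (DCT), connecting tubule (CNT) and cortical, outer medullary and inner medullary collecting duct (CCD, OMCD and IMCD). PTS2, CTAL and CCD had 5 mice, ATL and OMCD 4, and the other groups 3. Values are per mouse, after arithmetic averaging of up to 3 pieces of tubule per mouse, or mean ± SD over mice, whereas tested differences use the average of log2(TPM + 1) over pieces. TPM keep no read depth, so depth is unknown.

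Most nuclear receptors bind short DNA elements built from the hexamer AGGTCA. Many of the non-steroid receptors do so paired with a retinoid X receptor (RXR), whereas steroid receptors pair with themselves and several orphan receptors bind alone. Bound receptors recruit coactivators or corepressors, among them the PGC-1 coactivators that control mitochondrial gene programmes. In the kidney, nuclear receptors are known as regulators of fatty acid oxidation in the proximal tubule, of mitochondrial capacity in transporting epithelia and of salt and water handling.

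Of 30 marker genes of segments, 27 were highest in the segment they mark or in a neighbouring segment that shares them. A neighbour was allowed for markers of PTS2 and CNT only. Through it counted Slc34a1 of PTS2, highest in PTS1 (9502 TPM against 5659 TPM in PTS2). So did the CNT markers Calb1, highest in DCT (7258 TPM against 1386 TPM in CNT), and Scnn1b, highest in CCD (1333 TPM against 1149 TPM in CNT). The genes outside the 27 were Slc7a13, Slc22a7 and Atp6v1g3. Slc7a13 and Slc22a7, markers of the last proximal part, stood higher in the samples labelled PTS2 (2045 and 2468 TPM) than in PTS3 (1502 and 1460 TPM). Atp6v1g3 was highest in CNT. Of 1740 genes with odorant or vomeronasal receptor symbols, which renal tubules are not known to use widely, the number that reached 1 TPM in a sample had a median of 32 in PTS1, 96 in OMCD, 302.5 in ATL (17 to 659), 326 in DTL2, 475 in DTL3, 609.5 in glomeruli and 805 in DTL1, against 4 or fewer in the other 8 groups. Endothelial markers summed to a median of 3019 TPM in the glomerulus, 2833 TPM in DTL1, 1194 TPM in DTL2 and 971 TPM in DTL3, against 41.2 to 386 TPM elsewhere. The part of either in the levels below was not tested. The number of cells and the RNA per cell cannot be told apart in such bulk samples.

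The promoter sequences of 7 genes are shown because later results turn on them: 3 that marked a segment, and Nr1h4, Nr0b2, Nr1d1 and Nr1d2, whose levels are set side by side below. A further 30 of the 39 genes had an entry in the RefSeq promoter table (build GRCm38.p6), 37 in all. Each run is the 250 bases before the annotated start, read 5′ to 3′ on the gene's strand. Capitals mark the AGGTCA hexamer on either strand (TGACCT on the other), its extension AAAGGTCA, called the NBRE, to which NR4A receptors can bind as monomers, or the E-box CACGTG, to which the clock factors bind. The first set is Nr2e3 (chr9:59950080-59950329, minus strand), Rxrg (chr1:167618015-167618264, plus strand, the downstream of 2 entries) and Nr1i2 (chr16:38294825-38295074, minus strand), the genes that marked a single segment.
Nr2e3: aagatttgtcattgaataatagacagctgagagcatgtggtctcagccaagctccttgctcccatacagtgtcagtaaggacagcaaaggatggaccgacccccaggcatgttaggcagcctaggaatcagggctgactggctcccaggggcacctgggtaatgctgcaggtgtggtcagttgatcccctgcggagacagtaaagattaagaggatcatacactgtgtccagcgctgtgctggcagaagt
Rxrg: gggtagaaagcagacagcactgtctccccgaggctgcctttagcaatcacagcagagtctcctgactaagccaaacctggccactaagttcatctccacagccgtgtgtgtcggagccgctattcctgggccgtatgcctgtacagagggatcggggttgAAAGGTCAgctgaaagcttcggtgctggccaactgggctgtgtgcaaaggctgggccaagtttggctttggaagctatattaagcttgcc
Nr1i2: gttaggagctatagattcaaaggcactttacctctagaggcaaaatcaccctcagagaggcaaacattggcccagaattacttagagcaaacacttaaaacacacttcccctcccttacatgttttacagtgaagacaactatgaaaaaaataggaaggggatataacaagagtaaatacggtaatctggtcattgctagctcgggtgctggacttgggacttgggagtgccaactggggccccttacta
The bile acid receptor gene Nr1h4 (chr10:89506659-89506908, minus strand) and Nr0b2 (chr4:133553126-133553375, plus strand), which encodes a repressor that Nr1h4 is known to induce in liver, form the next set.
Nr1h4: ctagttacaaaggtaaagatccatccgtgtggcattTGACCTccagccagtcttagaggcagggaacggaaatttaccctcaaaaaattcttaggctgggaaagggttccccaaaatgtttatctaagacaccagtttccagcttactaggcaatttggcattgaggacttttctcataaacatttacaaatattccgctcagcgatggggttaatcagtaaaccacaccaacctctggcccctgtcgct
Nr0b2: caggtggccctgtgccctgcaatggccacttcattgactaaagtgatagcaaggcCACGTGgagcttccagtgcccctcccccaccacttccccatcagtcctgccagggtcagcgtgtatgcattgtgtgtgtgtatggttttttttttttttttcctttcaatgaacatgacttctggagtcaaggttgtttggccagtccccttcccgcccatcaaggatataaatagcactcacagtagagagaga
The clock receptors Nr1d1 (chr11:98775378-98775627, minus strand) and Nr1d2 (chr14:18239107-18239356, minus strand) form the last set.
Nr1d1: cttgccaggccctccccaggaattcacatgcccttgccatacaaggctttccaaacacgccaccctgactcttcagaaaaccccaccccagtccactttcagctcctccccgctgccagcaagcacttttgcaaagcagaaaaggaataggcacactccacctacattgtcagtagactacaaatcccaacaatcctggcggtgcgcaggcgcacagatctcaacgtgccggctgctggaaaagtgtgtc
Nr1d2: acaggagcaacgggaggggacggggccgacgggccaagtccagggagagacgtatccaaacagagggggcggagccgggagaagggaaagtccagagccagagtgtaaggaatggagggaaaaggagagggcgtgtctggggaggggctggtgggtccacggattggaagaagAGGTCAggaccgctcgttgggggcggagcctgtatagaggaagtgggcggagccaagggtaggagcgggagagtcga
The hexamer began 88 bases before the start in the Rxrg window shown, inside an NBRE beginning at base -90. The other Rxrg window held none of these letters. The hexamer was also found at base -214 in Nr1h4 and at base -77 in Nr1d2. The E-box of Nr0b2 began at base -195. None of these letters occurred in the windows of Nr2e3, Nr1i2 and Nr1d1. Over the 57 windows of the 37 genes, 17.5% held the hexamer, 3.51% an NBRE and 8.77% an E-box, against 14%, 1.34% and 6.02% of 32851 windows of all genes. Another 6 motifs were searched on both strands, of which the D-box TTATGNAA lay in 1.75% of the 57 windows and 3.07% of all. None of the 57 windows held the oestrogen-related receptor element TNAAGGTCA (1.14% of all windows), the cyclic AMP response element TGACGTCA (1.55%), the ROR element (0.177%), or the direct (0.0335%) or inverted (0.00609%) repeat of AGGTCA with 1 base between. A match is a description of the letters and not a binding site.

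The 39 genes together were most abundant in DTL3, at 1867 ± 364 TPM (n = 3), and least abundant in IMCD, at 561 ± 114 TPM (n = 3), and DCT, at 565 ± 32.9 TPM (n = 3). In DTL3 a single gene, Nr2e3, made up 41.2% of the sum. The most abundant of the 39 was Nr2f6, an orphan receptor, in PTS2, in PTS3 and in each of the 5 segments from MTAL to CCD. Nr1d1, the clock repressor REV-ERBα, led in the glomerulus, DTL1 and OMCD, its relative Nr1d2 in DTL2, the bile acid receptor Nr1h4 in PTS1, and the oxysterol receptor Nr1h2 in ATL and IMCD. In their highest group 10 of the 39 genes averaged at least 100 TPM, 21 averaged 10 to 100 TPM and 8 stayed under 10 TPM, namely Ppard, Rxrg, Rorb, Nr1i2, Nr1i3, Pgr, Nr4a3 and Nr5a2. Rxrb, Nr1d1, Nr1d2, Rora, Nr1h2, Nr2f6, Esrra and Nr3c1 averaged 10 TPM or more in each of the 15 groups. The heat map of group means shows these broad genes beside those limited to a few segments.

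**Figure D1:**
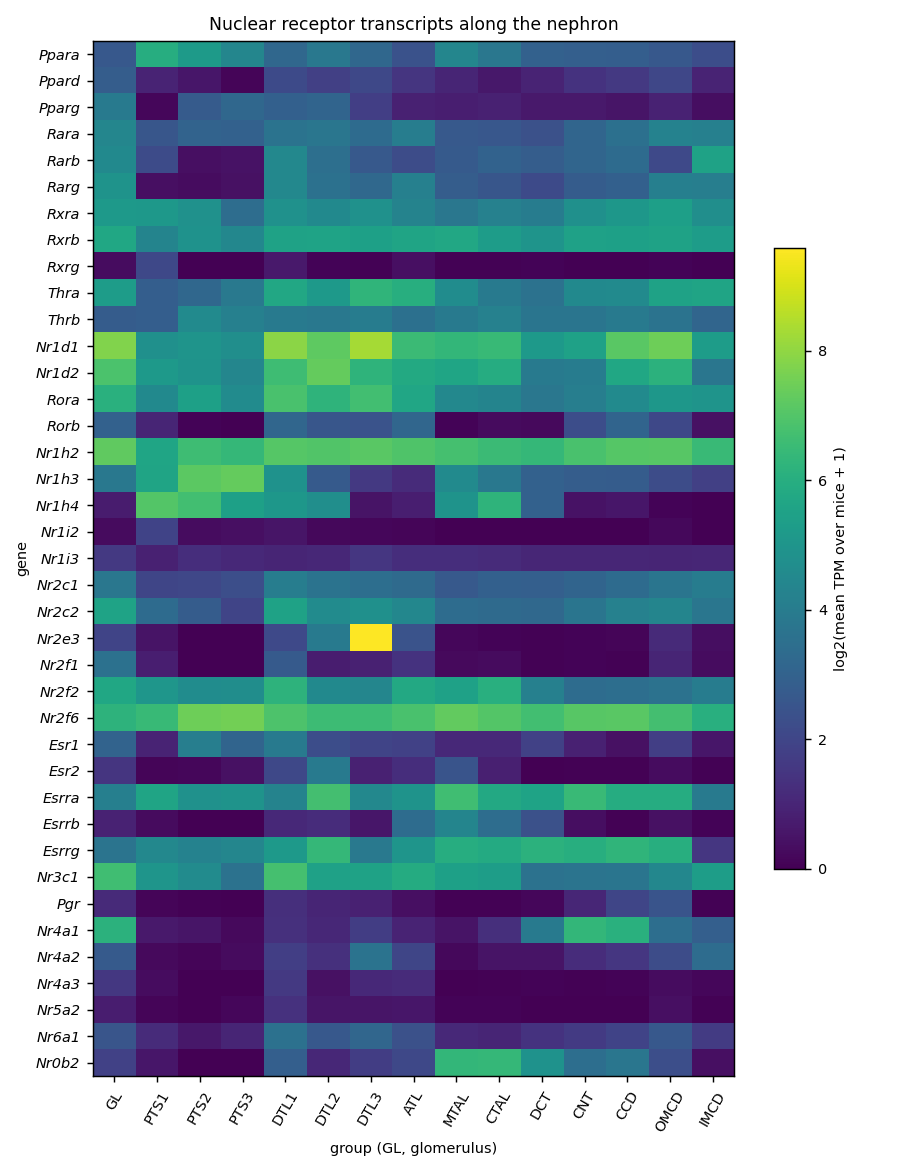
Mean level of the 39 nuclear receptor genes (rows) in the glomerulus (GL) and 14 tubule segments (columns), as log2(mean TPM over mice + 1) in colour. The brightest field is Nr2e3 in DTL3, and Nr1h3 and Nr1h4 are bright in the proximal segments and dark in ATL, OMCD and IMCD.

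Across all groups, 38 of the 39 genes differed by limma's moderated F-test, against 93.9% of the 33793 genes tested, so the share is near that of all genes. The exception was Nr1i3 (adjusted p 0.151 by limma), whose 15 group means lay between 0.828 and 2.02 TPM. In further tests a gene was called when its adjusted p was under 0.05 and its log2 difference, on the log2(TPM + 1) scale that understates changes of low genes, was at least 1. A gene marked a group when it exceeded each of the other 14 groups in this way. Rxrg and Nr1i2 marked PTS1, where 0.544% of all genes did, and Nr2e3 marked DTL3, where 0.257% did. Rxrg and Nr1i2 passed the filter of 1 TPM in 3 mice only through their PTS1 mice, so they had to be high there, and their margins are a description with no test. The 3 marks of 39 genes stand beside 8.8% of all genes that marked any group, and nothing is read from that count. Just inside this threshold was Nr1i2 with a margin of 1.39, and just outside were Esr2 in DTL2 (margin 1.44, adjusted p 0.0754 by limma) and Esrrb in MTAL (margin 0.91, adjusted p 0.0044). With a pseudocount of 5 in place of 1, the margins of Rxrg and Nr1i2 were 0.56 and 0.51 and no longer reached 1.

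Proximal segments (mean of PTS1, PTS2 and PTS3) were compared with distal ones (mean of MTAL, CTAL, DCT, CNT and CCD), sets in which no group had a median above 32 odorant or vomeronasal receptor genes. Sums of 5 leukocyte markers had group medians of 38.8 to 61.9 TPM proximally and 201 to 690 TPM distally, those of 5 endothelial markers 41.2 to 132 and 164 to 353 TPM, and their part in the contrast was not tested. The contrast called 12 of the 39 genes, against 18.6% of all genes tested. Nr1h4, Nr1h3, Ppara, Esr1 and Pparg were the 5 that were higher proximally, where 4.61% of all genes were. Nr0b2, Nr4a1, Rarg, Esrrb, Rarb, Esrrg and Nr1d1 were the 7 that were higher distally, where 14% of all genes were. The median difference of the 39 genes was -0.12, and that of all genes 0. After median ratio rescaling or quantile normalization the 2 directions held 7 and 6 genes, and the call of Nr1d1 was lost in both (-0.61 and -0.69). With a pseudocount of 5 the calls of Pparg (0.67), Esr1 (0.9), Rarb (-0.94), Esrrb (-0.94) and Rarg (-0.96) were lost. The plot of proximal minus distal differences gives every gene with its SE.

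**Figure D2:**
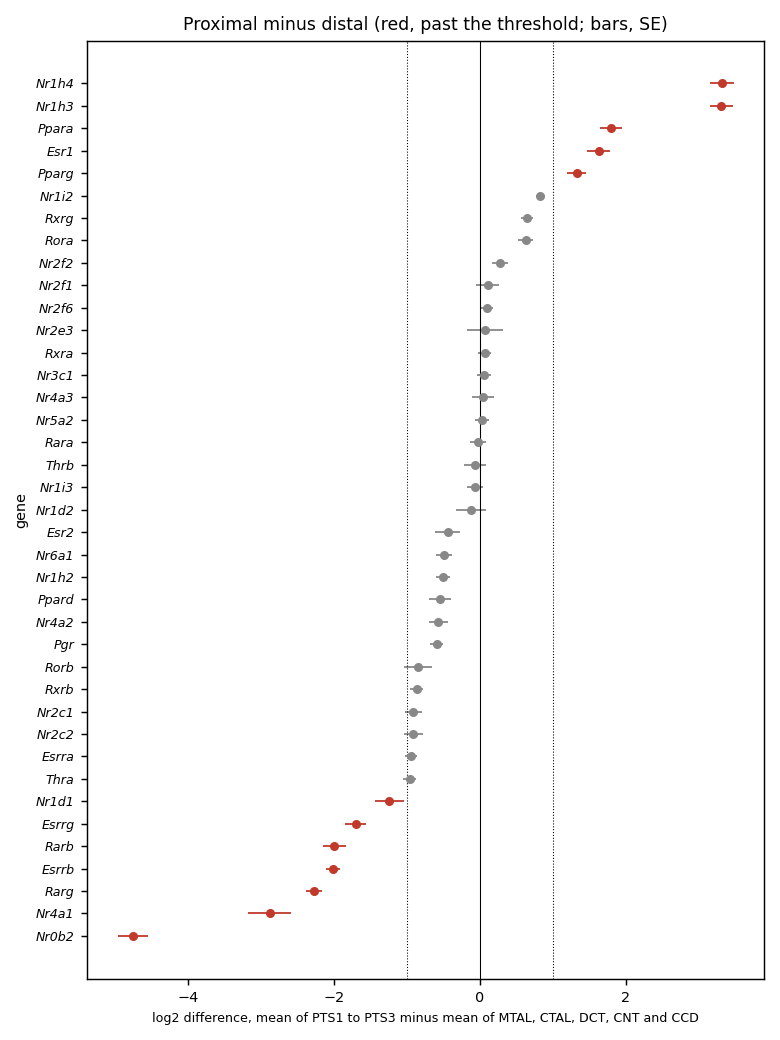
Log2 difference (x axis, log2(TPM + 1) scale, bars are SE) of the mean of PTS1 to PTS3 minus the mean of MTAL, CTAL, DCT, CNT and CCD for each of the 39 genes (y axis); dotted lines mark a difference of 1, and red points were called. Nr1h4 and Nr1h3 lie farthest to the right at 3.32 and 3.31, and Nr0b2 farthest to the left at -4.75.

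The PPAR genes encode fatty acid sensors that pair with RXR, and Ppara drives fatty acid oxidation. Ppara measured 54, 60.9 and 71.4 TPM in the mice of PTS1, 31.8, 34.5, 40.6, 35.5 and 38.6 TPM in PTS2, and 25.3, 15.9 and 19 TPM in PTS3. It measured 22.2, 22.5 and 16.4 TPM in MTAL and 5.15 to 8.46 TPM in the 5 mice of CCD. Each PTS1 mouse lay above each mouse of any other segment, yet the margin over PTS2 was 0.76 (adjusted p 0.597 by limma) and Ppara was not called as a mark. The proximal minus distal difference was 1.8 (SE 0.15, adjusted p 1.83e-14). Pparg, which drives fat storage programmes, was not simply lower or higher along the tubule: it measured 0.25, 0.065 and 0.09 TPM in PTS1, then 5.88, 5.62, 5.45, 4.74 and 7.06 TPM in PTS2 and 8.21, 8.04 and 8.28 TPM in PTS3. No PTS1 mouse overlapped with PTS2 or PTS3, and the PTS1 minus PTS2 difference was -2.56 (SE 0.24, adjusted p 5.54e-12). Its highest level was in the glomerulus (17.6, 12.8 and 11.5 TPM). Ppard, the third PPAR, stayed at or below 7.75 TPM in each mouse and was highest in the glomerulus (7.75, 4.1 and 6.45 TPM).

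Within the summed PPAR transcripts, Ppara made up 98.3 ± 0.411% in PTS1 and 91.8 ± 3.45% in MTAL, whereas Pparg made up 55.3 ± 4.09% in the glomerulus and 29.3 ± 4.52% in PTS3. Of 20 known PPAR target genes, all of which passed the filter, 8 were higher proximally and 6 higher distally, with a median difference of 0.3. Among those higher proximally were Cyp4a10, which hydroxylates fatty acids (7.05, SE 0.18), and Ehhadh of peroxisomal oxidation (3.65, SE 0.14). Among those higher distally were Acaa2, of mitochondrial oxidation (-3.18, SE 0.11), and Pdk4, which restrains pyruvate oxidation (-3.11, SE 0.22). Acaa2 nonetheless had its highest mean in PTS1, 1379 ± 41.8 TPM, against 66.2 ± 16 TPM in PTS2, 1.98 ± 0.538 TPM in PTS3 and 858 ± 61.8 TPM in CTAL. Cyp4a10 has near-identical relatives between which reads can be split, so its value is uncertain. The list thus held genes of either direction.

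The RXR genes encode the shared partner. Rxra and Rxrb were present in each group, with Rxra between 9.85 ± 1.17 TPM in PTS3 and 41.8 ± 4.63 TPM in OMCD and Rxrb between 18.9 ± 1.8 TPM in PTS1 and 52.5 ± 8.2 TPM in MTAL. Rxra fell from 29.9, 25.6, 31.6, 24.3 and 28.6 TPM in PTS2 to 11.2, 8.89 and 9.51 TPM in PTS3, a difference of 1.47 (SE 0.16, adjusted p 3.52e-09 by limma), with no overlap. As deposited, the summed RXR level of 30.4 ± 0.533 TPM in PTS3 was the lowest of all groups, and that of OMCD, 87.1 ± 6.73 TPM, the highest. These sums were not rescaled. Median ratio rescaling would divide them by 0.5635 to 0.6448 in the PTS3 mice and by 1.234 to 1.262 in the OMCD mice. The ranks of the groups therefore hold for deposited TPM only. Rxrb took 80.1 ± 0.82% of RXR transcripts in MTAL and 34.2 ± 3.37% in PTS1. Rxrg, the third RXR, known from muscle and brain, measured 2.87, 3.04 and 3.7 TPM in PTS1. It was listed at 0 in each mouse of PTS3 and CNT and in 4 of 5 mice of PTS2, and its highest value outside PTS1 was 1.22 TPM, in DTL1 mouse 5. The margin of PTS1 over DTL1 was 1.45 (SE 0.16). In PTS1 Rxrg was still only 5.78 ± 0.752% of RXR transcripts.

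**Figure D3:**
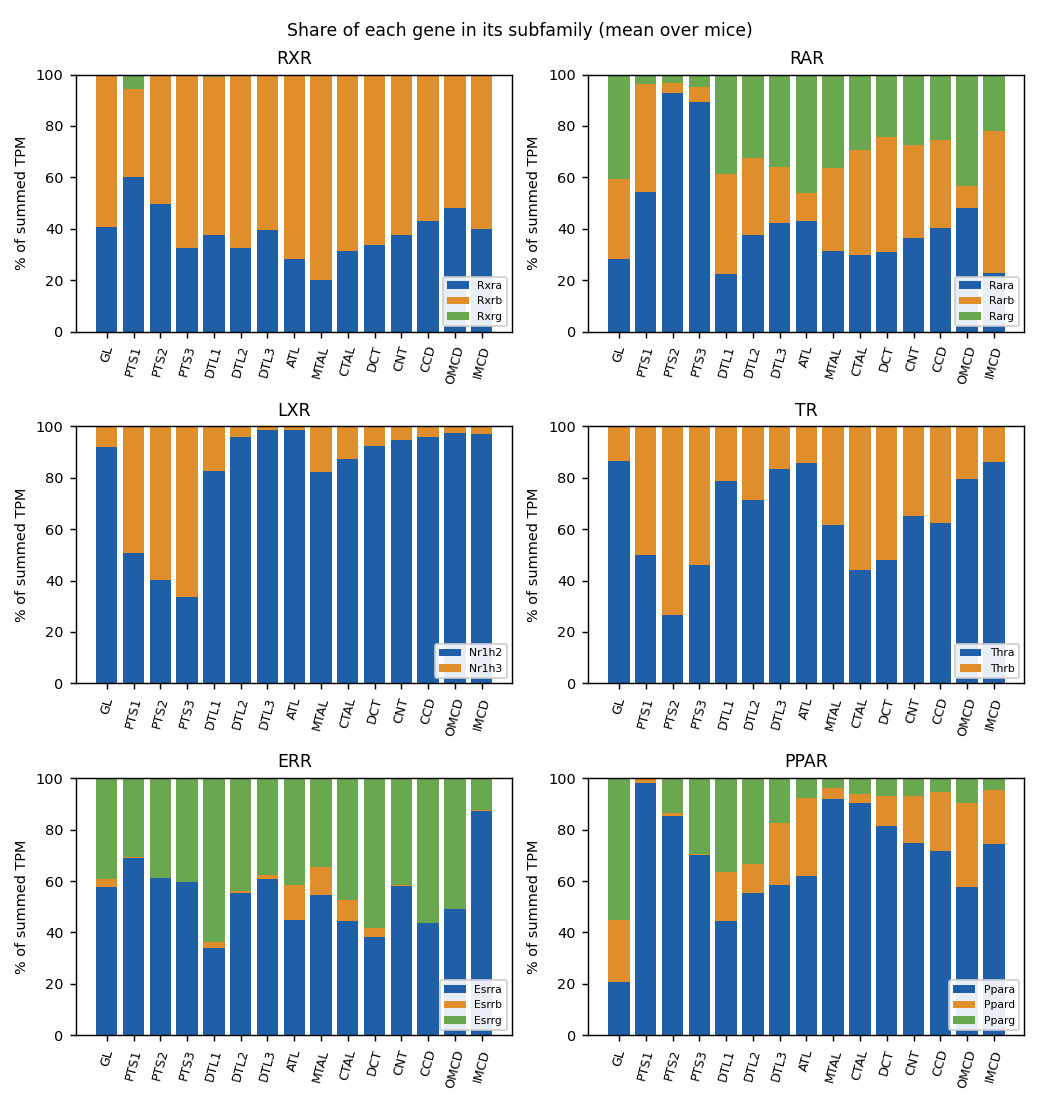
Share of each gene (colours) in the summed TPM of its subfamily, as the mean over mice in percent (y axis), for the glomerulus (GL) and 14 segments (x axis). Rara fills most of the RAR bar in PTS2 and PTS3, Nr1h3 gains on Nr1h2 in the 3 proximal segments, and Esrra dominates ERR in IMCD.

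The retinoic acid receptors (RAR) change chromatin at retinoid target genes as dimers with RXR. In PTS2 and PTS3 the RAR transcripts were nearly all Rara, at 92.8 ± 3.71% and 89.5 ± 7.58% of the sum, against 29.7 ± 5.46% in CTAL. Rarg measured 0.11 to 0.5 TPM in the 11 mice of the 3 proximal segments and 2.65 to 7.58 TPM in the 19 mice of the 5 distal ones, without overlap, a difference of -2.27 (SE 0.11, adjusted p 3.49e-22 by limma). Rarb also differed, by -1.99 (SE 0.16, adjusted p 2.68e-15), but PTS1 stood apart from the later proximal parts. It measured 4.39, 3.27 and 3.16 TPM in PTS1 and 0.65, 0.24, 0.26, 0.21 and 0.16 TPM in PTS2 (difference 1.82, SE 0.29, adjusted p 2.68e-06). With a pseudocount of 5 this last call was also lost (0.7). Rara itself showed no called difference (-0.02, SE 0.11, adjusted p 0.986).

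Rarb reached its highest level at the end of the collecting duct. It measured 21.9, 65 and 49.7 TPM in IMCD against 3.01, 3.52, 3.13 and 3.75 TPM in OMCD, with no overlap and an OMCD minus IMCD difference of -3.3 (SE 0.31, adjusted p 3.15e-12 by limma). The IMCD mice spread widely, and the margin over the glomerulus was 0.87 (adjusted p 0.416), so Rarb was not called as a mark of IMCD. Rarb was called as such a mark without IMCD mouse 1 (margin 1.33, adjusted p 0.0183). The same held after median ratio rescaling (1.19, adjusted p 0.0262) and under quantile normalization (1.59, adjusted p 0.00172). On the opposite strand, 34.1% of the exon bases of Rarb overlap those of Top2b in GENCODE M21. Top2b averaged 12.3 TPM in IMCD, 37.5 TPM in OMCD and 57.5 TPM in the glomerulus, its highest group. Since no strand-specific counting is stated, reads from the 2 genes may not be separable, and the part of Top2b in the Rarb values was not tested. Crabp2, a carrier that delivers retinoic acid to RAR, was looked up after the Rarb values were seen. It stood at 109 ± 28.6 TPM in IMCD and 7.84 ± 0.902 TPM in OMCD (n = 3 and 4). Of 16 genes of retinoid supply and response, 2 were higher proximally and none (0 of 16) distally, with a median of 0.06. They were Adh1, a retinol-oxidizing dehydrogenase (3.4, SE 0.22), and Stra6, the retinol uptake receptor (1.37, SE 0.2). The segments of Adh1 overlapped, as it averaged 122 ± 10.8 TPM in PTS1 and 1135 ± 96.4 TPM in PTS2 but 1804 ± 276 TPM in CCD. Stra6 averaged 29.8 ± 22.2 TPM in PTS1, 0.002 ± 0.00447 TPM in PTS2 and was listed at 0 in PTS3.

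The thyroid hormone receptors swapped rank along the nephron. Thra made up 26.7 ± 5.35% of their summed transcripts in PTS2 and 85.8 ± 9.92% in ATL. Thra measured 5.95, 5.02 and 8.05 TPM in PTS1 and 68.1, 76.1 and 85.6 TPM in DTL3, its highest group. Between DTL2 (41.1, 38.6 and 23.5 TPM) and DTL3 it rose by 1.18 log2 units (DTL2 minus DTL3 -1.18, SE 0.18, adjusted p 3.39e-06 by limma), a call lost without DTL2 mouse 3 (-0.93). Thrb measured 7.4, 4.68 and 6.98 TPM in PTS1 and 17.2, 20.2, 26.3, 24.8 and 25.2 TPM in PTS2, again without overlap (-1.69, SE 0.28, adjusted p 5.71e-06). Thra and Nr1d1 lie tail to tail and share 263 exon bases, 5.7% of those of Thra, and both were highest in DTL3. Of 9 genes of thyroid hormone supply and response, 8 passed the filter, 2 were higher proximally and none (0 of 8) distally, with a median of 0.05. Dio1, a deiodinase, was higher proximally (4.83, SE 0.13).

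Among receptors of oxysterols and bile acids, the liver X receptors differed in breadth. Nr1h2 (LXRβ) averaged 49.2 ± 5.4 TPM in PTS1 and 152 ± 10.9 TPM in the glomerulus and was called in none of the 14 neighbouring comparisons (0 of 14). Nr1h3 (LXRα) was far more restricted. It measured 48.2, 48.7 and 46 TPM in PTS1, 145, 147, 152, 137 and 136 TPM in PTS2 and 165, 148 and 170 TPM in PTS3. Distally it measured 25.7, 24.8 and 18.6 TPM in MTAL, 12.5 to 13.8 TPM in CTAL and 5.53 to 6.16 TPM in CCD. All proximal mice lay above all distal ones, and the difference was 3.31 (SE 0.16, adjusted p 2.18e-22 by limma). Nr1h3 thereby made up 66.3 ± 2.08% of LXR transcripts in PTS3 and 1.26 ± 1.54% in ATL. From PTS3 to DTL2 (6.34, 7.04 and 3.17 TPM) it fell by 4.72 log2 units (SE 0.34), although most called genes of that pair were higher in DTL2.

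Nr1h4, the bile acid receptor FXR, was high in the proximal tubule and again in the thick ascending limb. It measured 120, 165 and 104 TPM in PTS1, 105, 42.8, 111, 108 and 139 TPM in PTS2 and 39.8, 46.5 and 41.6 TPM in PTS3. It measured 33.2, 23.1 and 42.8 TPM in DTL1 and 12.8, 20.8 and 44.3 TPM in DTL2, then 0, 0.33 and 0.9 TPM in DTL3 and 0, 1.53, 0 and 1.43 TPM in ATL. In MTAL it returned at 32, 31.1 and 25.9 TPM and in CTAL at 66.2, 69.6, 74.6, 83.4 and 76.4 TPM, then stood at 7.92, 6.59 and 6.33 TPM in DCT. No mouse of CNT, CCD, OMCD or IMCD exceeded 1.25 TPM. By limma Nr1h4 was called in 6 of the 14 neighbouring pairs. It was not called in PTS1 against PTS2, PTS3 against DTL1 or DTL2, DTL1 against DTL2 or DTL3 against ATL. Nor was it called in CNT against CCD, CCD against OMCD or OMCD against IMCD. DTL2 exceeded DTL3 by 4.13 (SE 0.34, adjusted p 6.47e-13), ATL lay below MTAL by 4.27 (difference -4.27, SE 0.32, adjusted p 4.03e-15), MTAL lay below CTAL (difference -1.3, SE 0.31, adjusted p 0.0041), and CTAL exceeded DCT by 3.27 (SE 0.31, adjusted p 1.43e-11). The MTAL to CTAL call was lost with a pseudocount of 0.1 (-1.32, adjusted p 0.336). The proximal minus distal difference of 3.32 (SE 0.16) averages over this second region, since CTAL overlaps in level with PTS2.

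Nr0b2 (SHP), a receptor without a DNA-binding domain that represses others and is a known FXR target in liver, shared only the second of these regions. It measured 0.36, 0.685 and 0.47 TPM in PTS1, 0 to 0.04 TPM in the 5 mice of PTS2 and was listed at 0 in the 3 mice of PTS3. In MTAL it measured 67.6, 97.6 and 75.9 TPM, in CTAL 113, 66.2, 84, 75.7 and 79.7 TPM, in DCT 29.3, 27.9 and 27.6 TPM, in CNT 7.93, 13.2 and 8.71 TPM and in CCD 12.6, 11.4, 14.8, 11.1 and 13.2 TPM. Every distal mouse lay above every proximal one, and the difference of -4.75 (SE 0.21, adjusted p 4.57e-24 by limma) was the largest in either direction among the 39 genes. In the segments with the highest Nr1h4, PTS1 and PTS2, Nr0b2 was thus at or below 0.685 TPM. Where Nr0b2 stood at 7.93 to 14.8 TPM, in CNT and CCD, Nr1h4 was at or below 1.25 TPM. Between DCT and CNT the difference was 1.45 (SE 0.44, adjusted p 0.0223), and this call was lost when any of DCT mice 1, 2 and 3 or CNT mice 1 and 3 was left out (1.32 to 1.46). The plot of 6 genes by mouse sets both side by side.

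**Figure D4:**
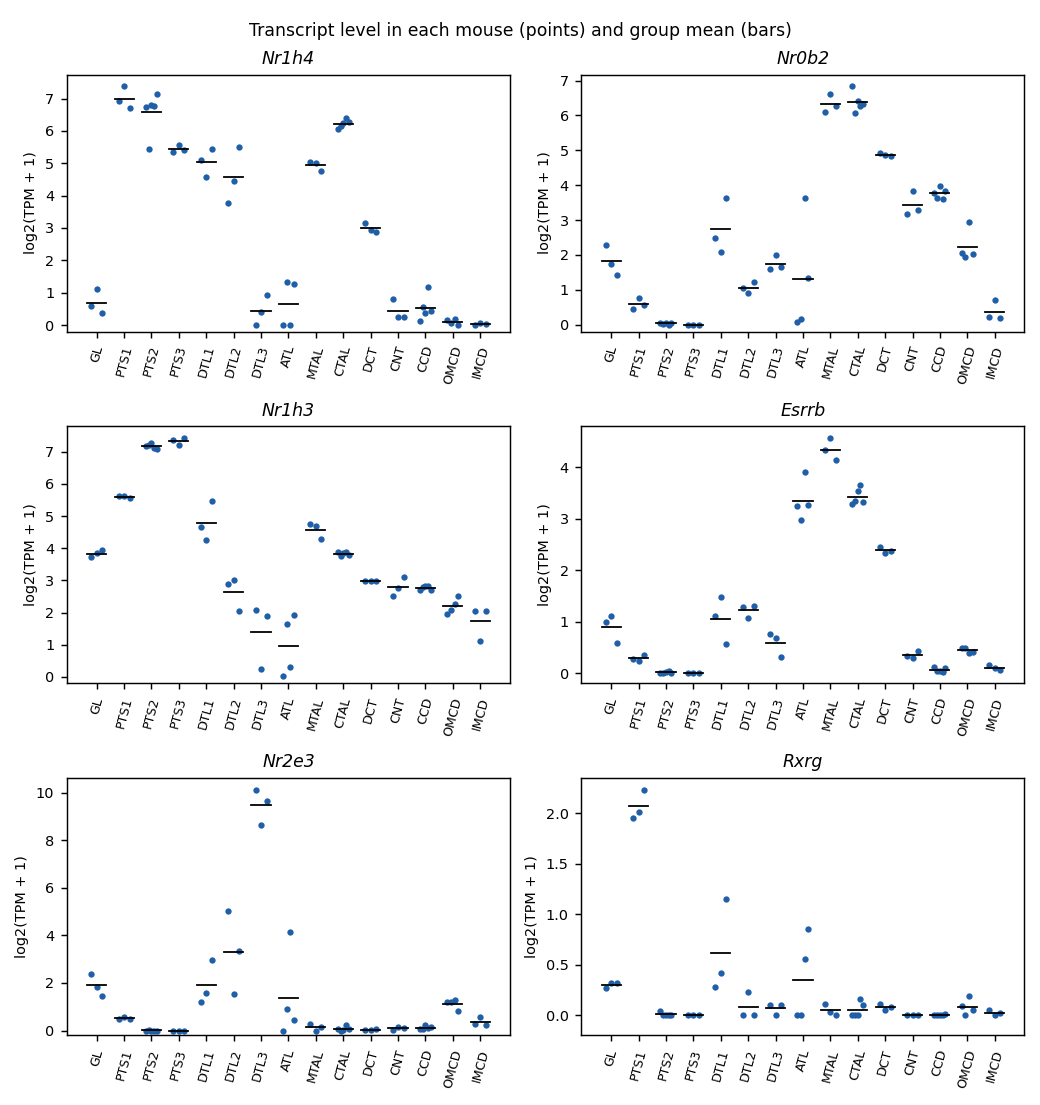
Levels of Nr1h4, Nr0b2, Nr1h3, Esrrb, Nr2e3 and Rxrg in each mouse (points, y axis log2(TPM + 1)) with the group mean of these values (bars), along the glomerulus (GL) and 14 segments (x axis). Nr1h4 is high in PTS1 to DTL2 and again in MTAL and CTAL, Nr0b2 in MTAL and CTAL but not in PTS1 to PTS3, and Nr2e3 stands out in DTL3.

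Of 12 bile acid and oxysterol response genes, 11 passed the filter, with 4 higher proximally, 3 higher distally and a median of 0. The bile acid exporter subunits Slc51b (5.66, SE 0.14) and Slc51a (3.83, SE 0.13) were higher proximally, and Srebf1, a regulator of lipid synthesis (-1.63, SE 0.12), and the cholesterol exporter Abca1 (-1.44, SE 0.17), both known LXR targets, were higher distally. Scd1, a desaturase gene and also a known LXR target, was looked up after its values were seen and was higher proximally (3.63, SE 0.14), at 118 ± 35.3 TPM in PTS2 and 43.4 ± 9.33 TPM in PTS3 but 0.0767 ± 0.0437 TPM in PTS1. Slc51b measured 75.6 ± 10.3 TPM in PTS3 and 0.334 ± 0.336 TPM in CTAL, and Slc51a 0.392 ± 0.294 TPM in CTAL, where Nr1h4 stood at 66.2 to 83.4 TPM. The xenobiotic sensors were scarce. Nr1i2 (PXR) measured 2.94, 2.4 and 2.99 TPM in PTS1 and at most 0.71 TPM in any other mouse, a margin of 1.39 over DTL1 (SE 0.14). Nr1i3 (CAR) averaged 0.828 to 2.02 TPM over the groups, and 74.9% of its exon bases lie opposite Tomm40l, a gene of the mitochondrial import machinery. Tomm40l ranged from 16.5 TPM in IMCD to 79.5 TPM in MTAL, and how far its reads enter the Nr1i3 value was not tested.

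The clock receptors include the repressors Nr1d1 and Nr1d2 and the activators Rora and Rorb, which act on the same elements of clock genes such as Arntl. Nr1d1 measured 277, 307 and 357 TPM in DTL3, its highest group, and 30.8, 22 and 24.6 TPM in PTS3, its lowest. The proximal minus distal difference was -1.24 (SE 0.2, adjusted p 6.96e-07 by limma). Rora was highest in DTL1, at 110, 137 and 91.6 TPM, and measured 16.4, 10.4 and 12.2 TPM in DCT. Rorb differed between distal segments, with 3.98, 3.68 and 3.77 TPM in CNT and 5.34 to 9.18 TPM in CCD against at most 0.38 TPM in any mouse of MTAL, CTAL and DCT. The DCT minus CNT difference of Rorb was -2.03 (SE 0.39, adjusted p 0.000157), a call lost with a pseudocount of 5 (-0.77). It also measured 1.62, 1.71, 13.7 and 14.7 TPM in ATL mice 2, 3, 4 and 6, in which 29, 17, 576 and 659 odorant or vomeronasal receptor genes reached 1 TPM; their part in the Rorb values was not tested.

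The levels of Nr1d1 and Nr1d2 also varied between mice of the same segment. In CCD, Nr1d1 measured 47.6 and 60.6 TPM in mice 1 and 3 and 211, 182 and 188 TPM in mice 2, 4 and 5, and Nr1d2 measured 23.8 and 22.1 TPM against 69, 71.7 and 68.5 TPM. In CTAL, Nr1d2 measured 29.8 and 20.7 TPM in mice 1 and 3 and 82.5, 68.5 and 97.8 TPM in mice 2, 4 and 5. Dbp, a clock output gene looked up after its values were seen, measured 14 and 12.1 TPM against 170, 141 and 153 TPM in the same CCD mice, and Arntl, which peaks in antiphase to it, 45.4 and 41.1 TPM against 11.5, 13.1 and 15 TPM. PTS2 mice 1 and 3 likewise had Dbp at 18.4 and 25.7 TPM, the others at 138, 140 and 125 TPM. The 3 mice each of DCT and CNT had Dbp between 3.69 and 9.1 TPM and Arntl between 28.4 and 48.8 TPM. The labels give no time of collection, so a difference in clock genes between segments and one in collection time cannot be told apart. The plot of clock genes by mouse shows the 3 groups with 5 mice.

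**Figure D5:**
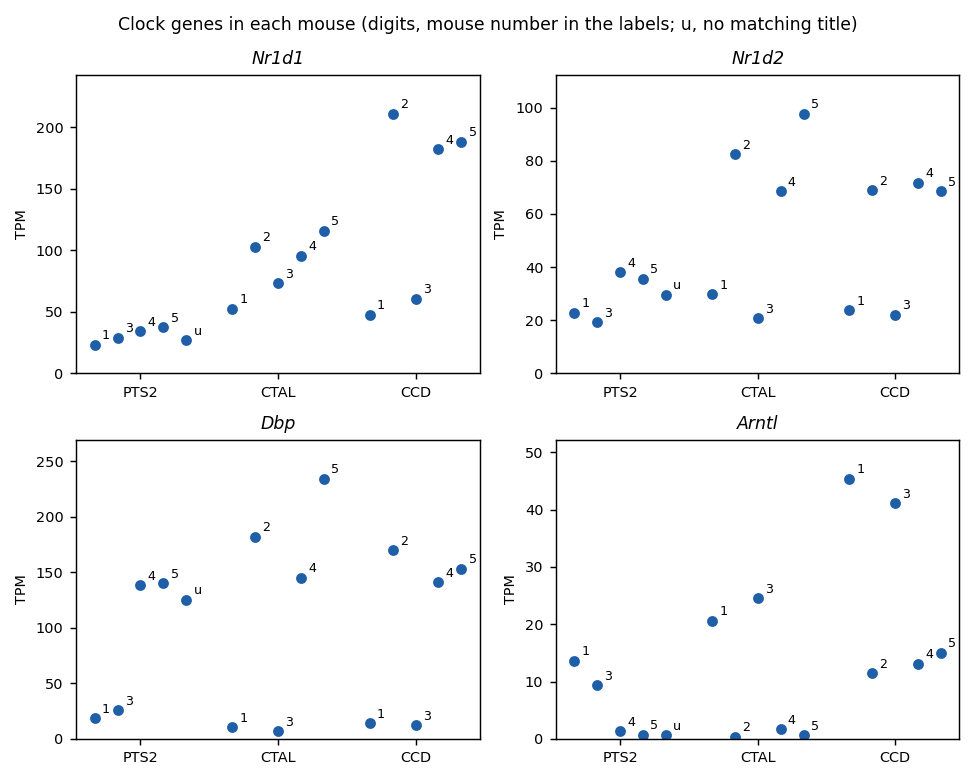
TPM (y axis) of Nr1d1, Nr1d2, Dbp and Arntl in the single mice of PTS2, CTAL and CCD (x axis; digits are mouse numbers, u is a mouse whose column header gives number 2 but matches no sample title). In CCD and CTAL mice 1 and 3 lie lowest for Nr1d1, Nr1d2 and Dbp and highest for Arntl.

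Segment comparisons of these 2 genes rest on the same mice. CNT lay below CCD for Nr1d1 (-1.44, SE 0.37, adjusted p 0.026 by limma) and Nr1d2 (-1.51, SE 0.38, adjusted p 0.0224). Both calls were lost when any of CNT mice 1, 2 and 3 or CCD mice 2, 4 and 5 was left out (Nr1d1 -1.22 to -1.61, Nr1d2 -1.29 to -1.64). They were also lost with mouse number as a replicate block (Nr1d1 -1.34, Nr1d2 -1.33). CCD mice 1 and 3 alone, at 47.6 and 60.6 TPM of Nr1d1, lay close to CNT (54.2, 32 and 44.1 TPM). CTAL exceeded DCT for Nr1d1 (1.32, adjusted p 0.0155) and Nr1d2 (1.81, adjusted p 0.000673). The Nr1d1 call was lost without DCT mouse 2 (1.36) or 3 (1.07) and with the replicate block (1.22). Of 15 other clock genes, 4 were higher proximally and 3 distally, with a median of -0.01. Hlf (3.3, SE 0.2) and Ciart (1.63, SE 0.43) were higher proximally, Arntl (-2.48, SE 0.39) and Cry1 (-1.99, SE 0.23) distally.

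Of the steroid receptors, the glucocorticoid receptor gene Nr3c1 was found in every group. It measured 120, 104 and 97.2 TPM in DTL1 and 92.5, 97.9 and 107 TPM in the glomerulus, the 2 groups with the highest endothelial marker sums, and 11.3, 11.9 and 10 TPM in PTS3. CTAL (30.9, 36.1, 38, 40.9 and 51.2 TPM) exceeded DCT (14.6, 9.79 and 9.77 TPM) by 1.72 (SE 0.18, adjusted p 4.29e-10 by limma). Proximal and distal segments showed no called difference (0.06, SE 0.1, adjusted p 0.9). Of 10 glucocorticoid response genes, none (0 of 10) was higher proximally and 5 were higher distally, with a median of -0.97. The metallothionein genes Mt1 (-6.98, SE 0.27) and Mt2 (-6.22, SE 0.39), which metals also induce, differed most.

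The oestrogen receptor genes were divided between segments. Esr1 (ERα) measured 14.8, 16.1, 19.2, 13.8 and 16.5 TPM in PTS2 but 1, 1.04 and 0.8 TPM in PTS1, without overlap, and PTS1 minus PTS2 was -3.11 (SE 0.3, adjusted p 9.32e-12 by limma). In DTL1, its second highest group, it measured 9.51, 12.7 and 20.6 TPM and made up 83.2 ± 6.54% of oestrogen receptor transcripts. In PTS3 it measured 9.22, 7.13 and 6.08 TPM, and proximal segments as a whole exceeded distal ones by 1.63 (SE 0.16, adjusted p 2.29e-12), or by 0.9 with a pseudocount of 5. Esr2 (ERβ) instead measured 16.1, 15.8 and 11.9 TPM in DTL2, 4.76, 3.69 and 5.61 TPM in MTAL and at most 6.45 TPM in any mouse of the other groups. It made up 79 ± 3.88% of oestrogen receptor transcripts in DTL2 and 80.3 ± 2.87% in MTAL, against 0.82 ± 1.03% in PTS2. DTL2 exceeded DTL3 by 3.06 (SE 0.35, adjusted p 4.57e-09) and MTAL exceeded CTAL by 1.75 (SE 0.32, adjusted p 0.000113), the latter call being lost with a pseudocount of 5 (0.75). The progesterone receptor gene Pgr was low but graded along the collecting duct, with 1.14, 1.21 and 0.79 TPM in CNT, 2.92 to 3.35 TPM in CCD and 3.6, 4.68, 5.46 and 4.58 TPM in OMCD. In IMCD it was at most 0.0733 TPM, and OMCD exceeded IMCD by 2.41 (SE 0.17, adjusted p 1.27e-15), a call lost with a pseudocount of 5 (0.92). The CNT to CCD step of Pgr lay at the threshold (-1, SE 0.17, adjusted p 0.000101) and was lost without CNT mouse 3 (-0.91), CCD mouse 2 (-0.98) or CCD mouse 4 (-0.99), after median ratio rescaling (-0.9), under quantile normalization (-0.63) and with a pseudocount of 5 (-0.42).

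The oestrogen-related receptors (ERR) bind no known hormone and act with PGC-1 coactivators on mitochondrial genes. Esrrb was limited to the thin and thick ascending limbs and DCT. It measured 8.51, 6.87, 14 and 8.59 TPM in ATL, 19.1, 22.6 and 16.5 TPM in MTAL, 8.76, 9.12, 10.6, 11.6 and 8.97 TPM in CTAL and 4.46, 4.01 and 4.17 TPM in DCT. No mouse of any other group exceeded 1.78 TPM. DTL3 lay below ATL (difference -2.76, SE 0.18, adjusted p 1.08e-16 by limma), and DCT exceeded CNT by 2.02 (SE 0.19, adjusted p 3.5e-11). The proximal minus distal difference was -2.01 (SE 0.09, adjusted p 1.82e-23) and fell under 1 with a pseudocount of 5 (-0.94), as did that of DCT and CNT (0.8). Esrrg measured 50.4 to 79.3 TPM in the mice of MTAL, CTAL, DCT, CNT and CCD and 13.9 to 23.8 TPM in the proximal ones, a difference of -1.7 (SE 0.14, adjusted p 3.51e-14). In IMCD it dropped to 2.13, 2.17 and 1.28 TPM from 51.5, 53.4, 79.7 and 68.2 TPM in OMCD, 4.59 log2 units (SE 0.28, adjusted p 6.41e-18). Esrra also differed there (2.09, SE 0.16, adjusted p 1.1e-14) and was highest in DTL2, at 117, 119 and 77.3 TPM.

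DTL2 exceeded DTL3 for Esrra by 2.22 (SE 0.17) and for Esrrg by 2.56 (SE 0.3). Ppargc1a, which encodes PGC-1α, averaged 231 ± 33.9 TPM in DTL2 and 266 ± 42.7 TPM in MTAL, against 32.9 ± 9.42 TPM in DTL3, 10.8 ± 2.38 TPM in IMCD and 1.69 ± 1.11 TPM in PTS3. Of 18 coactivator and corepressor genes, none (0 of 18) was higher proximally and 7 were higher distally, with a median of -0.92. Ppargc1a differed most (-3.83, SE 0.1). Of 10 known ERR targets, 9 passed the filter and 3 were higher distally, none (0 of 9) proximally, with a median of -0.94. Kcnq1, a potassium channel gene (-6.79, SE 0.14), and Idh3a, of the citric acid cycle (-1.87, SE 0.07), differed most. Esrra is on that target list as well as among the 39 genes.

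Nr2e3, a receptor best known from photoreceptors, was the most segment-bound of the 39 genes. It measured 1104, 400 and 805 TPM in the 3 mice of DTL3. In DTL2 it measured 32.1, 1.88 and 9.15 TPM, in ATL 0, 0.86, 16.6 and 0.37 TPM, in DTL1 1.3, 2.03 and 6.77 TPM and in the glomerulus 4.25, 2.6 and 1.75 TPM, and no mouse of the other 10 groups exceeded 1.46 TPM. DTL3 exceeded DTL2 by 6.77 (SE 0.52, adjusted p 8.57e-13 by limma as a mark) and ATL by 8.1 (SE 0.49, adjusted p 7.5e-18). The 2 pieces of DTL3 mouse 3 gave 810 and 799 TPM. Within DTL2 single pieces differed far more, as mouse 1 gave 61.9 and 2.21 TPM and mouse 3 gave 3.48, 2.07 and 21.9 TPM. The ATL to MTAL call of Nr2e3 (1.23, adjusted p 0.0356) rested on ATL mouse 4, without which it was 0.31 (adjusted p 0.513), and was also lost when any of MTAL mice 1, 2 and 3 was left out (1.16 to 1.29). The margin of DTL3 ranged from 5.88 with a pseudocount of 5 to 7.46 under quantile normalization.

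The COUP-TF genes of the same group encode repressors and developmental regulators. Nr2f2 measured 68.5, 64.7, 68.5, 63.2 and 61.3 TPM in CTAL and 21.6, 13.6 and 16.1 TPM in DCT, without overlap (difference 1.9, SE 0.2, adjusted p 6.04e-10 by limma). It was also high in DTL1 (49.8, 105 and 60.4 TPM), next to high endothelial marker sums. Nr2f1 was highest in the glomerulus (12.8, 11.2 and 8.45 TPM), where 6 stromal and muscle markers summed to a median of 580 TPM against at most 39.9 TPM in any other group. Nr2f6 was abundant throughout, from 62.7, 60 and 71.4 TPM in IMCD to 189, 151 and 223 TPM in PTS3. PTS1 (91.8, 72.3 and 98.9 TPM) lay below PTS2 (211, 211, 168, 128 and 176 TPM) by a called -1.01 (SE 0.15), which fell under 1 without PTS1 mouse 2 (-0.87), PTS2 mouse 1 (-0.94) or PTS2 mouse 3 (-0.95), after median ratio rescaling (-0.83), under quantile normalization (-0.57) and with a pseudocount of 5 (-0.98). Opposite Nr2f6 lies Ocel1, covering 54.4% of its exon bases, at 10.6 to 32.6 TPM over the groups. The testicular receptor genes Nr2c1 and Nr2c2 were broad, and Nr2c2, at 46.5 ± 3.48 TPM in the glomerulus and 2.9 ± 1.11 TPM in PTS3, overlaps Mrps25 (20.9 to 125 TPM) in 30.7% of its exon bases. In all, 12 of the 39 genes share exon bases with another annotated gene, 10 of them on the opposite strand.

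The NR4A genes are immediate early genes that are induced within a short time by many stimuli. Nr4a1 measured 175, 22.3 and 43.9 TPM in CNT, 12.5, 172, 41, 87.3 and 19.5 TPM in CCD and 62.5, 95.8 and 52 TPM in the glomerulus. It stayed at or below 0.77 TPM in the 11 proximal mice. In MTAL it measured 0.37, 0.445 and 0.425 TPM, within the proximal range, and in CTAL 0.925 to 2.27 TPM. The proximal minus distal difference was -2.88 (SE 0.3, adjusted p 2.46e-11 by limma). Fos, another immediate early gene, measured 1002, 184 and 406 TPM in the same CNT mice and 127, 1900, 930, 827 and 166 TPM in the same CCD mice, and in both segments the mouse highest for Fos was also the highest for Nr4a1. Of 14 immediate early genes, 13 passed the filter, none (0 of 13) was higher proximally and 9 were higher distally, with a median of -2.76. Fos (-5.31, SE 0.71) and Btg2 (-4.84, SE 0.29) differed most. The labels do not give the time between death and lysis, and the part of handling in these values was not tested.

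The step of Nr4a1 from CTAL to DCT (8.02, 11.3 and 24.3 TPM) was called (-2.5, SE 0.57, adjusted p 0.00162 by limma). That from DCT to CNT (-2.01, SE 0.64, adjusted p 0.0295) was lost without DCT mouse 1 (-1.71), DCT mouse 2 (-1.95) or CNT mouse 1 (-1.2). It was also lost after median ratio rescaling (-1.68), under quantile normalization (-1.67) and with a pseudocount of 0.1 (-2.09). Nr4a2 followed another pattern, with 7.89, 17.2 and 9.35 TPM in DTL3 and 8.32, 11.6 and 8.32 TPM in IMCD, and DTL2 lay below DTL3 (difference -2.36, SE 0.28, adjusted p 5.99e-09). DTL3 mouse 2, the highest for Nr4a2, also had Nr4a1 at 6.54 TPM and Fos at 2666 TPM, against at most 0.53 and 10.3 TPM in the other DTL3 mice. Nr4a3 was at most 3.1 TPM in any mouse. Nr5a2 (LRH-1, a bile acid synthesis regulator in liver) stayed at or below 2.49 TPM, and Nr6a1 (a germ cell receptor) was highest in DTL1, at 11.1, 7.19 and 14.5 TPM. DTL1 also had the most odorant receptor genes, and 37 of the 39 genes averaged 1 TPM or more there, against 22 in PTS2. Over all genes, the median number that reached 1 TPM in a sample was 27730.5 in DTL1 and 11583.5 in PTS2. Nothing is therefore read from the count of the 39.

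Between neighbouring segments, 138 of 546 combinations of gene and pair were called, or 25.3%, against 17.5% over all genes. At least 1 pair was called for 37 of the 39 genes, the exceptions being Nr1h2 and Nr1i3, against 80.5% of all genes. Nr0b2 and Nr1d1 were called in the most pairs, 7 each, ahead of several genes with 6. This rank rests in part on calls that were lost when a mouse was left out. Within the proximal tubule 8 of 39 genes differed between PTS1 and PTS2 (9.57% of all genes), 3 higher in PTS1 and 5 in PTS2 (4.46% and 5.1% of all genes), with Rxrg (2.06, SE 0.14) and Esr1 (-3.11) at the extremes. Of the 3, Rxrg and Nr1i2 passed the filter only through PTS1, and with a pseudocount of 5 all 3 calls were lost (0.71, 0.57 and, for Rarb, 0.7). After median ratio rescaling 5 of 9 were higher in PTS1. Between PTS2 and PTS3, 4 genes differed (4.7% of all genes), all 4 higher in PTS2 (3.94% of all genes), namely Rxra, Nr1h4 (1.14, SE 0.31, adjusted p 0.0069 by limma), Esr1 (1.04, SE 0.3, adjusted p 0.0111) and Nr3c1 (1.05, SE 0.18). After median ratio rescaling the Rxra call alone was left (1.29), and under quantile normalization none (0 of 39), with Rxra at 0.97. The Nr1h4 call was lost without PTS2 mouse u, whose header gives number 2 but matches no sample title (1.0), and those of Esr1 and Nr3c1 without PTS3 mouse 3 (0.92 and 0.98), that of Esr1 also without PTS2 mouse 4 (0.97). With a pseudocount of 5 these calls of Esr1 and Nr3c1 were lost too (0.77 and 0.85).

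At the entry to the thin limbs the level of all genes shifted, and the calls moved with it. PTS3 against DTL1 called 26 genes (65.5% of all genes), 24 of them higher in DTL1 and 2 in PTS3 (61.8% and 3.75% of all genes), while the median over all genes was -1.33 and that of the 39 was -1.42. Ppara (1.19, SE 0.31) and Nr1h3 (2.54, SE 0.34) were the 2 higher in PTS3, the call of Ppara being lost with a pseudocount of 5 (0.91), and Rarb (-4.02, SE 0.33) was the most different the other way. The shares higher in PTS3 were 2 of 26 as deposited, 7 of 24 after median ratio rescaling and 9 of 17 under quantile normalization. PTS3 against DTL2 called 20 genes (40% of all genes; median of all genes -0.71), with 1 gene, Nr1h3, higher in PTS3 and 19 in DTL2 (3.85% and 36.2% of all genes), among which Esr2 was the most different (-3.52, SE 0.35). Here 8 of 19 and 9 of 19 were higher in PTS3 after the 2 rescalings. DTL1 against DTL2 called 11 genes (28.2% of all genes; median 0.54), 8 higher in DTL1 (25.2% of all genes), led by Nr1h3 (2.18, SE 0.34), and 3 higher in DTL2 (2.99%), led by Esrra (-2.45, SE 0.17). Under quantile normalization 4 of 11 were higher in DTL1.

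DTL2 against DTL3 called 10 genes (9.58% of all genes), 6 higher in DTL2 and 4 in DTL3 (3.5% and 6.08% of all genes), with Nr1h4 and Nr2e3 at the extremes. Its call of Nr1d1 (-1.15, adjusted p 0.045 by limma) was lost when DTL2 mouse 1 or 3 or any DTL3 mouse was left out, and that of Nr1h3 (1.22) without DTL2 mouse 2 (1.05) or DTL3 mouse 2 (0.64) and with a pseudocount of 5 (0.58). DTL3 against ATL called 8 genes (14.6% of all genes), 5 higher in DTL3 (11.8% of all genes), led by Nr2e3, and 3 higher in ATL (2.86%), led by Esrrb. After either rescaling 3 of 7 were higher in DTL3. The call of Esrrg (-1.04) was lost without DTL3 mouse 1 (-0.7), ATL mouse 4 (-0.7) or ATL mouse 6 (-0.94) and with ATL mice 2 and 3 alone (-0.38) or a pseudocount of 5 (-0.86). That of Pparg (1.05) was lost without DTL3 mouse 2 (0.87) or ATL mouse 2 or 3 (0.82 each), after the 2 rescalings (0.78 and 0.53) and with a pseudocount of 5 (0.36), and that of Rora, at the threshold, without DTL3 mouse 1 or 3 or ATL mouse 2 or 6 (0.89 to 1.0). ATL against MTAL called 15 genes (28.1% of all genes; median 0.48). Of these, 8 were higher in ATL (22.6% of all genes), led by Rorb (2.56, SE 0.37), and 7 in MTAL (5.43%), led by Nr0b2 (-5.03, SE 0.41). Rorb averaged 7.94 ± 7.25 TPM in ATL, with its high values in ATL mice 4 and 6. Under quantile normalization 2 of 13 were higher in ATL. Nr0b2 measured 0.05, 0.12, 11.4 and 1.52 TPM in the 4 ATL mice.

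From the thick limb onward, MTAL against CTAL called 2 genes (3.15% of all genes), Esr2 higher in MTAL (0.589%) and Nr1h4 higher in CTAL (2.57%), and under quantile normalization 2 of 3 were higher in MTAL. CTAL against DCT called 8 (4.35% of all genes), 7 higher in CTAL (2.34%), led by Nr1h4, with Nr4a1 higher in DCT (2.01%). DCT against CNT called 6 (5.22% of all genes), 4 higher in DCT (1.52%), led by Nr1h4 (2.53, SE 0.34), and 2 higher in CNT (3.7%), Rorb and Nr4a1. After median ratio rescaling 5 of 6 and under quantile normalization 4 of 5 were higher in DCT. The DCT to CNT call of Esr1 (1.03, SE 0.33, adjusted p 0.0349 by limma) was lost in 5 of the 6 fits that left out a mouse of either segment, with values of 0.85 to 1.11, and with a pseudocount of 5 (0.39). CNT against CCD called 3 (1.12% of all genes), Nr1d1, Nr1d2 and Pgr, all 3 higher in CCD (0.681%). With mouse number as a replicate block all 3 calls were lost (-1.34, -1.33 and -0.95). CCD against OMCD called 5 (12.1% of all genes), with Nr4a1 (2.18, SE 0.52) the largest of 3 higher in CCD (1.73%) and Esr1 (-1.28, SE 0.27; -0.46 with a pseudocount of 5) the larger of 2 higher in OMCD (10.4%). Under quantile normalization 4 of 4 were higher in CCD. OMCD against IMCD called 12 (18.6% of all genes), 10 higher in OMCD (15.2%), led by Esrrg, and 2 higher in IMCD (3.4%), Rarb and Nr4a2 (-1.18, SE 0.26), the latter lost with a pseudocount of 5 (-0.74). After median ratio rescaling 7 of 10 and under quantile normalization 6 of 9 were higher in OMCD.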

How the data were processed

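RNA of 93 microdissected samples was amplified from polyadenylated transcripts and sequenced, per the labels' protocols, and the authors deposited 1 table of TPM for 54532 genes. The submitters' processing notes name STAR 2.5.4a, RSEM 1.3.0, Cell Ranger 3.0.2 and Seurat without a role. The genome build, annotation and strand setting of the counting are not given in the sources used here. TPM are scaled to the same total in each sample and keep no depth, so no counting interval is given. Columns of authors' means (14) were not used, and 3 single-cell samples were not analysed here. A PTS2 column whose header names mouse 2 with a piece letter found in no sample title was kept as a PTS2 mouse (u) and given no number in the replicate block.

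For the tests, pieces of 1 mouse and segment were averaged as log2(TPM + 1), giving 53 mice as replicates; printed TPM and the filter use the arithmetic mean of pieces. The 33793 genes that reached 1 TPM in 3 or more mice were fitted over all 15 groups with limma 3.58.1 in R 4.3.3 (moderated tests with a mean-variance trend), and p-values were adjusted by Benjamini-Hochberg over all genes. A call needed an adjusted p under 0.05 and, outside the F-test, an absolute log2 difference of 1 or more. A mark took the largest p of its 14 comparisons. Other steps used pandas 2.3.3 and numpy 2.4.6 under Python 3.11.15, with matplotlib 3.10.9 for plots. The fit was tested on simulated data of 33793 genes with 200 changed. It recovered 85.5% in the F-test, 93.5% for CTAL against DCT and 99.5% for proximal against distal at a log2 change of 2. At a log2 change of 3 it recovered 93.5% of marks of DTL3. In these 4 runs 7, 5, 0 and 0 other genes were called. The simulated noise was normal and independent, with the same spread of a gene in all 15 groups. It had no floor at 0 and no shift of all genes between groups. How far these figures hold for the measured data was not tested.

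All 39 genes were named. Those described most fully were the marks, the 3 largest proximal to distal calls in each direction and the largest call in each direction of each neighbouring pair; from each other gene list the 2 largest calls in each direction were named, except for some that are not reported here. The members and lists were chosen with earlier results of these data known. Alternatives were other pseudocounts (0.1 and 5), other filters, median ratio rescaling, quantile normalization, pieces averaged before the log, a replicate block, fewer groups or ATL mice, and leaving out each mouse.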

Additional observations from a re-analysis of the deposited data

Results flagged for a closer look

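In groups of 4 or 5 mice, 12 of 139 combinations of gene and group had a mouse that stood apart from the others by a wide gap (Dixon's test at 95%). Chance gives about 1 in 20 only for independent, normally distributed values. The test was run on TPM without a log, and several flags share 1 mouse, so no excess over chance is read from the count. In ATL mouse 4, Nr2e3 measured 16.6 TPM against 0 to 0.86 in the other mice, Nr0b2 11.4 against 0.05 to 1.52, Nr2f1 5.86 against 0 to 0.81, and Nr1i3 2.83 against 0.74 to 1.04 TPM. In ATL mouse 6 Rara measured 24.0 TPM against 12.2 to 13.9, and in ATL mouse 2 Nr4a2 measured 5.54 TPM against 1.92 to 2.44. CTAL mouse 5 stood apart for Rora (23.4 TPM against 17.3 to 19.0) and Nr2c2 (10.7 TPM against 8.47 to 8.69), and CTAL mouse 4 for Rara (6.87 TPM against 4.2 to 4.94). In OMCD, Nr4a2 measured 5.8 TPM in mouse 2 against 2.74 to 3.17, and Nr0b2 6.7 TPM in mouse 3 against 2.86 to 3.14. PTS2 mouse 5 had the lowest Esrra, 27.1 TPM against 28.2 to 28.5.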

How the results depend on the processing

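The number of the 39 genes that differed among groups (38) was 32 with a filter at a TPM of 5 and 37 over the 9 groups with few odorant receptor genes. The 3 marks became 1 with the filter at 5 TPM, 6 under quantile normalization and 3 to 5 when 1 mouse was left out. There were 5 without DTL1 mouse 5, where Esr2 in DTL2 and Nr2f1 in the glomerulus were added. The filter at 5 TPM leaves low genes untested, among them Rxrg and Nr1i2, so their marks were not tested there. Of the single calls outside the F-test that were still tested under it, all 140 were kept. The 138 calls between neighbouring segments became 176 with a pseudocount of 0.1 and 85 with 5 (134 to 142 without 1 mouse). The 12 proximal to distal calls became 21 with a pseudocount of 0.1 and 7 with 5 (12 to 13 without 1 mouse). Under quantile normalization PTS3 minus DTL1 reversed for Ppard (0.24), Rxra (0.13), Rxrb (0.03), Nr2c1 (0.31), Esr2 (0.73, adjusted p 0.0036 by limma), Pgr (0.32), Nr4a2 (0.46) and Nr5a2 (0.28), and PTS3 minus DTL2 for Rxra (0.06). The median of all genes in PTS3 minus DTL1 was -1.33 as deposited, -0.92 after median ratio rescaling and -0.02 under quantile normalization. Single calls were lost in 76 leave-1-out values (1371 kept), 32 after median ratio rescaling (121 kept) and 60 with a pseudocount of 5. Under quantile normalization 44 were weaker and lost, and the 9 named above were lost by reversal (100 kept). With ATL mice 4 and 6 alone, an alternative chosen after seeing the data, 4 were lost (22 kept). The replicate block gave 38, 4, 131 and 12 for the same counts and lost 10 single calls. Among these were Nr1d1, Nr1d2 and Pgr from CNT to CCD and Nr1h4, Esr1 and Nr3c1 from PTS2 to PTS3. The others were Nr1d1 from DTL2 to DTL3 and CTAL to DCT, Esrrg from DTL3 to ATL and Nr6a1 from OMCD to IMCD. Deviations correlated with a median r of 0 over 290 pairs of equal mouse number (-0.22 to 0.282) and 0 over 1016 pairs of unequal number. They thus showed no general pairing by number. Pairing in the clock genes alone was not tested, and Dbp was lower in mice 1 and 3 than in the others in PTS2, CTAL and CCD alike. Depth is unknown, so it sets no limit that can be stated for low genes.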
